A study of Mus musculus with 2 samples.

Results

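The Igf2r-Airn domain is an imprinted stretch of mouse chromosome 17 that holds Igf2r, Airn, Slc22a2, Slc22a3, Mas1 and Plg. CTCF peaks were taken from the optimal peak list of a ChIP-seq study when their summit, the base of highest signal, lay between 50 kb outside the first and 50 kb outside the last of these 6 genes. This window runs over chr17:12328608-12918143 (590 kb, mm10, genes from GENCODE M21) and held 25 of the 57220 peaks. The peaks are numbered 1 to 25 here from the Plg end to the Mas1 end.

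The study measured CTCF binding in whole liver of mice of the strain B6NCrl on postnatal day 0. It has 1 group with 2 biological replicates, no treatment and no second genotype. Per the labels, the livers were pulverized and pooled from several dissections, both replicates carry the same biosample label, and sex was not recorded. Differences between the replicates may therefore be technical. Whole newborn liver mixes hepatocytes with blood-forming and other cells, and the peak lists carry no expression values, so the tissue label could not be checked against marker genes here. The lists do not separate maternal from paternal chromosomes, and a peak's signal cannot tell few strongly bound cells or alleles from many weakly bound ones.

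CTCF is a zinc finger protein that halts the extrusion of chromatin loops by cohesin when its motif faces the oncoming loop. Igf2r encodes the receptor that takes up insulin-like growth factor 2 for degradation and carries mannose 6-phosphate tagged enzymes to lysosomes. It is expressed mainly from the maternal chromosome in mouse tissues. Airn is a long noncoding RNA that starts within Igf2r, runs antisense to it and is expressed from the unmethylated paternal chromosome. Its transcription silences Igf2r in cis, and in the mouse placenta the paternal copies of Slc22a2 and Slc22a3 are silenced as well. Slc22a2 and Slc22a3 encode organic cation transporters, Plg encodes plasminogen, which hepatocytes secrete, and Mas1 encodes a receptor for angiotensin-(1-7).

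Motif matches near the summits of some peaks are shown first, since they differ in a way the later results return to. Whether CTCF binds at these bases was not tested. Each is read 5′ to 3′ along the strand of the motif from GRCm38.p6, the assembly that mm10 names. Capitals mark the best match to the 14-base CTCF core within 50 bp of the summit, and lower case marks 10 bases on each side. The first set holds the 4 cores without a mismatch, at peaks 5, 11, 13 and 15.
Peak 5, chr17:12416409-12416422, forward: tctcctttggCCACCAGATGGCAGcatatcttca
Peak 11, chr17:12532315-12532328, reverse: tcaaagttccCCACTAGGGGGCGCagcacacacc
Peak 13, chr17:12562406-12562419, forward: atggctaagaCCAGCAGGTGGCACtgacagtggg
Peak 15, chr17:12639777-12639790, reverse: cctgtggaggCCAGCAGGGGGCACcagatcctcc

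The second set shows the best cores of the 3 strongest peaks of the domain. Peaks 3 and 22 have 1 mismatch and peak 12 has 3.
Peak 3, chr17:12372228-12372241, reverse: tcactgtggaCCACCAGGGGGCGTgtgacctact
Peak 12, chr17:12534946-12534959, forward: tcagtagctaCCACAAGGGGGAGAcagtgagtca
Peak 22, chr17:12810661-12810674, reverse: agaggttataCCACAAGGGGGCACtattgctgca

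The last set shows 5 cores that share their first 13 bases, at peaks 7, 9, 10, 19 and 25.
Peak 7, chr17:12422324-12422337, reverse: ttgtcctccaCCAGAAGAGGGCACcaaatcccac
Peak 9, chr17:12455331-12455344, reverse: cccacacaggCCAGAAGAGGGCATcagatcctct
Peak 10, chr17:12461352-12461365, forward: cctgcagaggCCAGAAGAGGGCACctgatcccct
Peak 19, chr17:12772266-12772279, reverse: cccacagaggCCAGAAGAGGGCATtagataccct
Peak 25, chr17:12881383-12881396, forward: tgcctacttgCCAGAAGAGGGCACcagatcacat

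CTCF lay between and inside the genes of the domain and, in the optimal list, at none of their promoters. The 25 peaks had deposited signals between 20.5 and 360.8 (median 79.4), and the whole list had signals between 4.12 and 701.8 (median 71.2). Signals above 200 were found at 7 peaks, signals under 60 at 12, and 6 lay between. The weakest of the 7, peak 1 (213.3), was stronger than 79.2% of the whole list. The strongest of the 12, peak 10 (53.0), was stronger than 41.9% of it. Above the median of the whole list were 13 of the 25 (52%), where 50% of all peaks lie by construction. The share of peaks above that median was thus near that of the list.

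**Figure D1:**
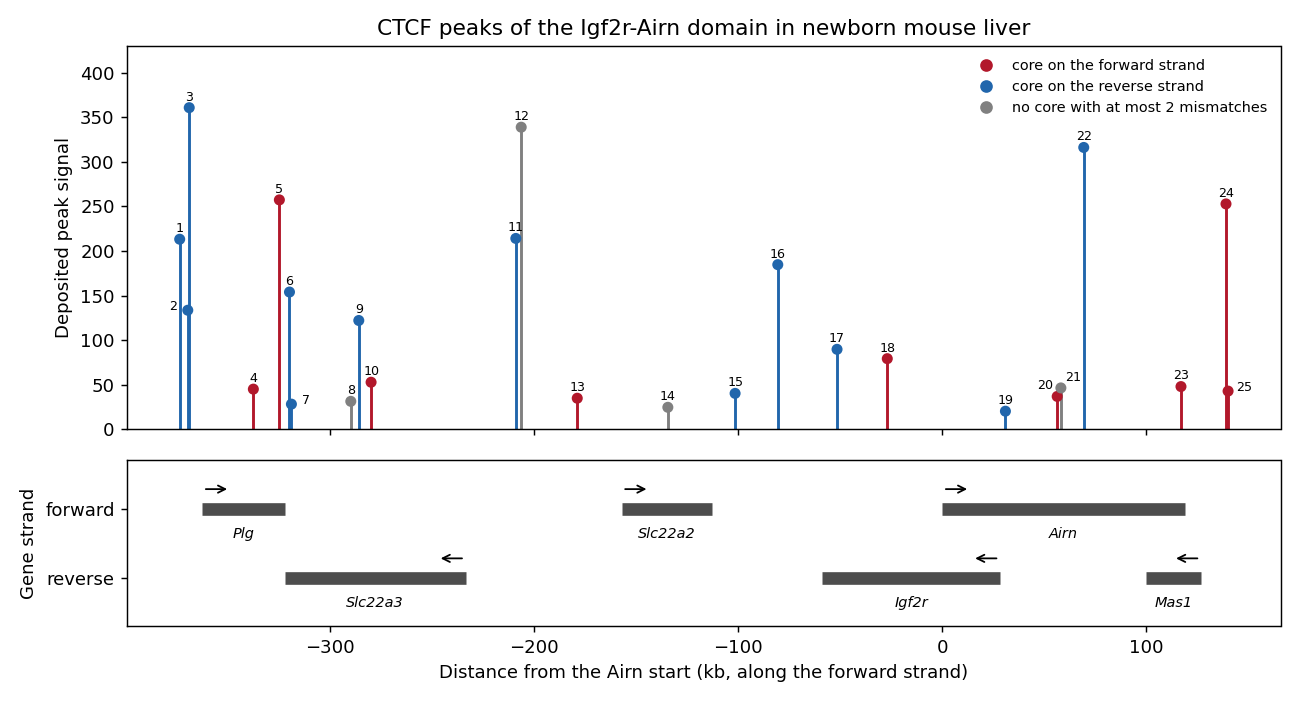
Deposited signal of the 25 peaks (top, vertical axis) against distance from the Airn start in kb along the forward strand, with the 6 genes by strand below and arrows at their 5' ends. The strong peaks 3, 5, 12, 22 and 24 (signals 360.8, 257.4, 338.9, 316.2 and 252.9) are spread over the domain, and no peak lies between peaks 18 and 19 around the Airn start.

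Along the window the peaks were denser than over the genome. There were 42.4 peaks per Mb in the window, compared with 21 on all assembled chromosomes and 27.3 on chromosome 17, a ratio of 2.02 to the genome. Of the 24 steps between neighbouring summits, 8 (33.3%) were under 5 kb, compared with 24.9% over the genome. Steps above 50 kb were 2 of 24 (8.33%), compared with 19.2% over the genome. Only steps with both summits inside the window were counted, which leaves out long steps more readily than short ones. The median step was 21.5 kb in the domain and 14.8 kb over the genome. The outermost peaks were 39.0 and 36.7 kb inside the window. Just outside it lay peaks of signal 40.9, at 9.46 kb below, and 36.4, at 70.2 kb above.

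At Igf2r, 2 peaks lay in the gene, both in the part farther from its start. Peak 18 (chr17:12714230-12714513, signal 79.4) was in intron 18 of the longest transcript, which has 48 exons. Its signal was 38.1 in replicate 1 and 40.6 in replicate 2. Peak 17 (chr17:12689712-12689800, signal 89.9) was in intron 42, with 49.9 in replicate 1 and 40.6 in replicate 2. Both are of middling strength, stronger than 52.9% and 56.1% of the list. Peak 17 is the narrowest of the domain at 89 bp, and its whole sequence on the forward strand is given with the core, which has 2 mismatches and lies on the reverse strand, in capitals.
Peak 17, chr17:12689712-12689800: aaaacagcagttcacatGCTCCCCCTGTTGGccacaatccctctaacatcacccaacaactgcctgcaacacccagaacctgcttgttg

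The peak closest to the 5' end of Igf2r was the weakest of the domain. Peak 19 (chr17:12772133-12772416, signal 20.5) lay 2.61 kb upstream of the Igf2r start, inside Airn. It had a signal of 13.8 in replicate 1 and 6.35 in replicate 2, with ranks of 45586 and 68142. Of the 25 peaks it was the only one missing from the conservative list, and its ratio between replicates, 1.12 on the log2 scale, was the widest of the domain. Its distance to Igf2r therefore rests on a weak peak. The promoter of Igf2r is rich in CpG, with 68.8% GC within 500 bp of the start and 0.903 times the CpG dinucleotides that its base composition predicts.

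Airn starts in intron 2 of Igf2r, at 12741311, and 57.9 kb around this start held no optimal peak. The gap is bordered by peak 18, 26.9 kb upstream, and peak 19, 31.0 kb downstream. Within the body of Airn, which is 119 kb long, lay 5 peaks with signals from 20.5 to 316.2. The strongest, peak 22 (chr17:12810513-12810773, 69.4 kb into Airn), had 149.8 in replicate 1 and 166.5 in replicate 2, with ranks of 6201 and 3795. The other 4 Airn peaks were all weak. Peaks 20 and 21, 1.80 kb apart, had signals of 37.1 and 46.6, and peak 23, within Airn and Mas1, had 48.1.

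At the Airn start itself only weak calls of the longer lists were found. The replicate lists and the pooled list, made from the reads of both, hold 300000 peaks each and so reach far down into weak signal. The pooled list had a peak 59 bp from the Airn start (chr17:12741228-12741511, signal 9.64, rank 79052), which replicate 1 held with 5.21 and replicate 2 did not hold. The strongest pooled peak of the gap lay 1.39 kb into Airn (chr17:12742561-12742844, signal 11.2), with 9.41 in replicate 1 and 2.62 in replicate 2. Both fall below every optimal peak of the domain, the lowest of which has 20.5. Among the 6 genes, Airn and Mas1 had a pooled-list peak within 1 kb of the 5' end. Of all protein-coding genes, which do not include Airn, 62.1% had one. The one at Mas1 (signal 6.52) was 790 bp from the start.

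Slc22a3 and Slc22a2 differed in how much CTCF lay within them, and also in length, at 88.7 and 44.4 kb. Per 100 kb of gene they held 5.63 and 2.25 peaks. Slc22a3, on the reverse strand, held 5 peaks, 4 in introns and 1 in the 3' UTR. The 3' UTR peak, peak 6 (chr17:12421269-12421461, signal 154.1), had 74.3 in replicate 1 and 77.8 in replicate 2. In intron 5 lay peak 9 (signal 122.2; 54.9 in replicate 1 and 64.7 in replicate 2) and the weak peak 8 (31.6). Peaks 10 and 7 had 53.0 and 28.4. All 5 lay in the part of the gene farther from its start, the closest of them 46.3 kb into the gene.

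Upstream of the Slc22a3 start, toward Slc22a2, lay a close pair of strong intergenic peaks. Peak 11 (chr17:12532188-12532423, signal 214.2) was 24.6 kb from the start, with 113.2 in replicate 1 and 101.6 in replicate 2. Peak 12 (chr17:12534827-12535089, signal 338.9) was 2.64 kb further, with 172.9 in replicate 1 and 166.6 in replicate 2. It is stronger than 93.4% of the list, although its best core has 3 mismatches. In the optimal list, the step of 70.9 kb from peak 10 to peak 11 across the Slc22a3 start is the longest of the domain.

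Slc22a2 had little CTCF, although its 2.25 peaks per 100 kb were close to the 2.29 of Igf2r. Its single peak, peak 14 in intron 4 (chr17:12606678-12606961, signal 24.9), had 10.9 in replicate 1 and 13.6 in replicate 2. The closest peak to its start was peak 13, 21.7 kb upstream, with a signal of 35.1 despite its perfect core. Peak 15 (signal 40.5) lay downstream of Slc22a2 on a perfect core.

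Strong peaks lay upstream of Plg and, inside the gene, near its 3' end. Upstream, 6.37 to 11 kb from its start, were peaks 3, 2 and 1, of which peak 3 (chr17:12372098-12372359, signal 360.8) is the strongest of the domain. It had 181.8 in replicate 1 and 179.3 in replicate 2, with ranks of 3015 and 2687. Peaks 1 and 2 had signals of 213.3 and 133.7. The peak is shown whole on the forward strand, with the core on the reverse strand in capitals.
Peak 3, chr17:12372098-12372359: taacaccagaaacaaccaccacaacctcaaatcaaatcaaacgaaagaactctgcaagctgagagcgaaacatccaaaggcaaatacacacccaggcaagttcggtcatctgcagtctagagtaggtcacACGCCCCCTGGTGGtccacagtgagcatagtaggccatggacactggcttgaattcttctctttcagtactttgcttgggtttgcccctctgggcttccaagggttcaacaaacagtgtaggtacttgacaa

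Near the other end of Plg, peak 5 in intron 17 (chr17:12416305-12416547, signal 257.4) had 141.7 in replicate 1 and 115.8 in replicate 2. It lay 4.96 kb from peak 6 in Slc22a3, where the 3' ends of Plg and Slc22a3 overlap. The cores of peaks 5 and 6 point toward each other. Peak 4, in intron 11, was weak (45.2).

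Mas1 held 1 peak, peak 23 in intron 3 (chr17:12858181-12858464), 9.82 kb from its 5' end and 3.28 kb from an internal start. It had 27.2 in replicate 1 and 20.9 in replicate 2. Upstream of Mas1, past the 3' end of Mrgprh, a gene of the same receptor family, lay peak 24 (chr17:12880261-12880493, signal 252.9). It had 127.7 in replicate 1 and 126.7 in replicate 2 and lay 12.2 kb from the Mas1 start. The weak peak 25 (43.0) was 1.02 kb from it.

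In the optimal list no member gene had a peak at a promoter, taken as a summit no more than 1 kb away from a transcript start. Such a peak lay at 0 of the 6 members, which include the noncoding Airn, and over the genome at 36.2% of protein-coding genes. Of the 25 domain peaks 0 were promoter peaks, compared with 20.5% of all peaks. The window holds the 5' ends of 20 annotated genes, 10 of them protein-coding, and 0 of these 20 had a promoter peak. The domain peaks were 15 intronic (60%), 9 intergenic (36.0%) and 1 exonic (4%), while the list as a whole had 40.5%, 33.8% and 5.17%. Domain peaks lay a median of 11.5 kb from a transcript start, and peaks of the whole list 6.06 kb.

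**Figure D2:**
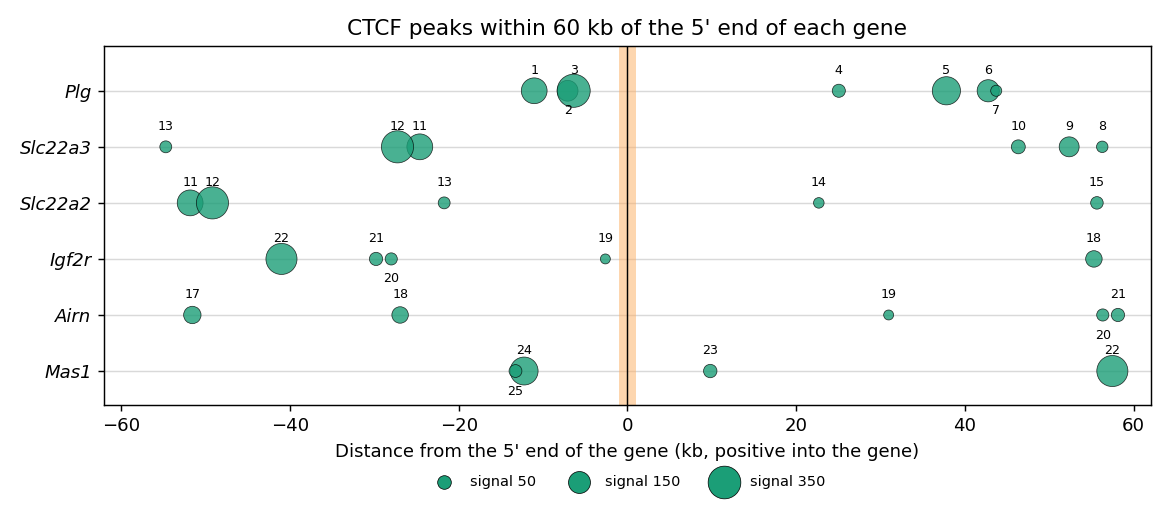
Peaks within 60 kb of the 5' end of each gene, by distance in kb (horizontal axis, positive into the gene), with the point area rising with the signal and the band marking 1 kb on each side. The band is empty for all 6 genes, and the closest peak is peak 19, 2.61 kb upstream of Igf2r.

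Ordered by the distance from any annotated start to the closest optimal peak, Igf2r (2.61 kb) comes first, then Mas1 (3.28 kb, internal start). Next are Airn (5.27 kb, internal start), Plg (6.37 kb) and Slc22a2 (21.7 kb), and Slc22a3 (24.6 kb) is last. From the 5' ends alone the order differs: Mas1 (9.82 kb) follows Plg, and Airn (26.9 kb) is last. By any start, Igf2r stays closest with the conservative list, but only through an internal start (0.055 kb). That list lacks peak 19, so the closest peak to the Igf2r 5' end is then peak 20, 28.0 kb away. At the far end, by any start, Slc22a3 (6.5 kb) comes before Slc22a2 (21.7 kb). The conservative list holds 2 peaks of the window that the optimal list lacks. One, chr17:12701082-12701365 (signal 27.1), lies in exon 30 of Igf2r, 55 bp from an internal start. It had 10.2 in replicate 1 and 15.8 in replicate 2, and with it Igf2r has a promoter peak by the definition used. The other, chr17:12514060-12514343 (signal 23.2), lies 6.5 kb upstream of Slc22a3, with 12.8 in replicate 1 and 9.31 in replicate 2. Both are weaker than most domain peaks, and Igf2r and Slc22a3 are the only members whose distance changed with the conservative list.

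The CTCF core was found at most domain peaks. With at most 2 mismatches within 50 bp of the summit it lay at 21 of 25 (84.0%), compared with 71.2% of all peaks and 2.98% of windows moved by 1 kb. The 4 peaks without it were peaks 8 and 14, with 4 mismatches, and peaks 12 and 21, with 3. At 15 of the 21, core center and summit were no more than 10 bp apart. In the RefSeq promoter windows (GRCm38.p6, short stretches around each start), which hold 5 of the 6 members, the best core had 3 mismatches at Igf2r and Airn, 4 at Slc22a2 and Slc22a3, and 5 at Mas1. Over all these windows 14.4% held the core with at most 2.

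In the domain the signal did not step down with each mismatch, although the 21 peaks with the core had a median of 89.9 and the 4 without it 39.1 (98.8 and 35.7 over the list). The 4 peaks with a perfect core fell apart into peaks 5 and 11, at 257.4 and 214.2, and peaks 13 and 15, at 35.1 and 40.5. Their median was 127.3, while perfect cores over the list had a median of 228.1. With 1 mismatch the median of 9 domain peaks was 79.4, compared with 118.2 over the list, and with 2 mismatches that of 8 was 106.0, compared with 62.2. Peak 12, at 338.9 with 3 mismatches, lay above the upper quartile of such peaks, which is 97.3. These are descriptions of few peaks, with no test.

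**Figure D3:**
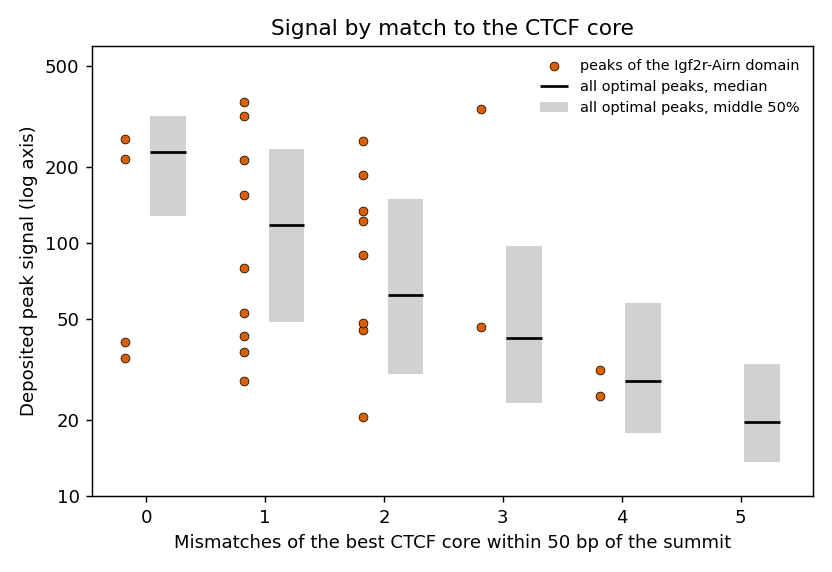
Signal (log axis) by the number of mismatches of the best core, for the domain peaks (points) and all optimal peaks (bars from the lower to the upper quartile, line at the median). The medians of all peaks step down from 228.1 to 19.7 from 0 to 5 mismatches, while the points of the domain do not follow this order.

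A single 13-base start of the core, CCAGAAGAGGGCA, recurred at 5 of the 25 domain peaks (20%). It was picked as the start most often shared in the domain, and it is also the most frequent start of the best cores over the list, at 4455 peaks (7.79%). At those 4455 the summit lay in soft-masked sequence, the lower case that marks repeats in the assembly, in 93.5%, and they make up 32.5% of all peaks with a masked summit. Rodent B2 repeats are known to carry CTCF sites, but the masking names no repeat family, so the family of these copies was not determined. The 5 domain copies had signals between 20.5 and 122.2 (median 43.0), and the other domain peaks had a median of 111.8. Over the list the 4455 had a median of 46.3. The sequence within 50 bp of each of the 5 summits was 52.5% to 83.2% masked.

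Of all domain peaks, 5 (20%) had a masked summit, compared with 22.4% of the list, and 4 of these 5 were copies of this core. Peaks 7, 9 and 10 all lie in introns of Slc22a3, and peak 19 is the weak peak upstream of Igf2r. A CpG, the site of DNA methylation, was present in 5 of the 23 domain cores with at most 3 mismatches, at peaks 2, 3, 6, 11 and 24. Over the list 34.8% of such cores hold a CpG. None of the few cores within Igf2r or Airn, at peaks 17 to 23, held one. The sequence within 50 bp of the summit did hold CpGs, 3 each at peaks 21 and 22 and 1 each at peaks 18 and 19. It held none at peaks 17, 20 and 23. DNA methylation was not measured.

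The cores pointed both ways, 9 on the forward and 12 on the reverse strand. Between direct neighbours with a core each, 8 of 16 pairs were tandem, 3 convergent and 5 divergent. Over the list the shares among 26472 pairs were 52.9% tandem, 22.1% convergent and 25% divergent. The 3 convergent pairs were peaks 5 and 6 at the joint of Plg and Slc22a3, peaks 10 and 11 across the Slc22a3 start, and peaks 18 and 19 across the Airn start. In the optimal list these last 2 pairs are also the 2 longest steps of the domain, at 70.9 and 57.9 kb. Each has a copy of the repeated core on one side. Neither is a pair of neighbours in the conservative list, which lacks peak 19 and holds a peak between peaks 10 and 11. That peak (chr17:12514060-12514343) has 2 mismatches in its best core.

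The replicates matched closely over the domain. Each of the 25 peaks had a summit within 100 bp in both replicate lists, as 97.1% of all optimal peaks did, and 24 (96.0%) were in the conservative list, compared with 87.8%. The signal was lower in replicate 1 at 14 peaks and higher at 11. The log2 ratio of replicate 1 to replicate 2 had a median of -0.09, from -0.64 at peak 21 to 1.12 at peak 19. Over the list its median was 0.06 and its 5th to 95th percentile ran from -0.73 to 0.86. Spearman's rho of the signals was 0.965 across the 25 peaks and 0.962 across the list. Peaks share libraries and are not replicates, and the optimal list was made from these same lists. A match in both was thus favoured in advance, and the match counts and rho are descriptions only.

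**Figure D4:**
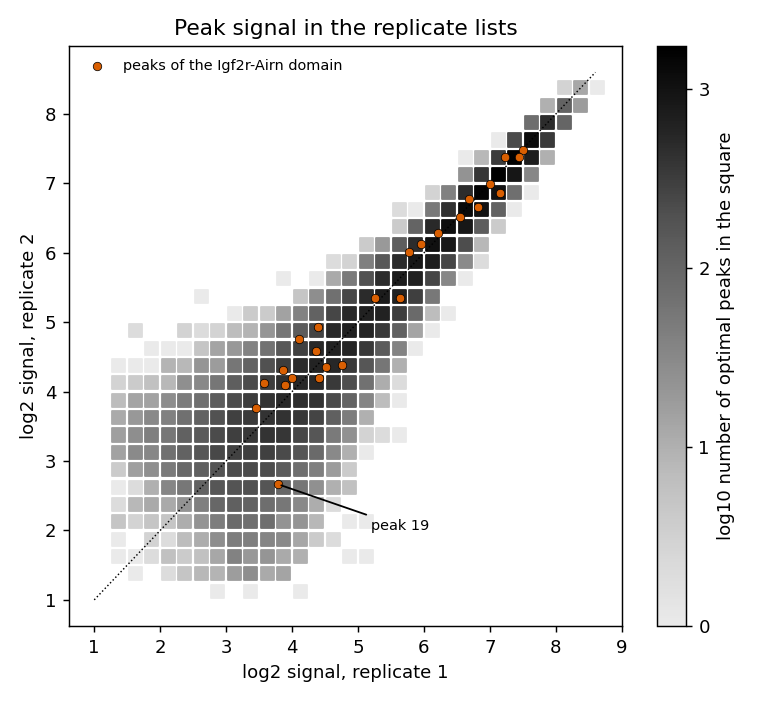
Log2 signal in replicate 1 (horizontal) and replicate 2 (vertical) for the 25 domain peaks (points) over all optimal peaks matched in both lists (squares shaded by their number). The domain peaks lie along the diagonal, and peak 19 is farthest from it, with 13.8 in replicate 1 and 6.35 in replicate 2.

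Genes that work with the members were looked up for promoter peaks in lists chosen with earlier results of these data known. The list for the growth factor 2 and mannose 6-phosphate pathway has 13 genes, among them the noncoding H19. Of these 13, 5 had a promoter peak (38.5%, compared with 36.2% of all protein-coding genes). The strongest were at M6pr, the other mannose 6-phosphate receptor (314.6), at Gnptab, which starts the making of the tag (297.1), and at Nagpa, which uncovers it (184.0, near an internal start). Igf1r had 19.3 and Igf2bp1, near an internal start, 15.7, and Igf2 and Igf2r had none. Among 8 organic cation transporter genes 3 had one (37.5%), Slc22a4 (119.1), Slc47a2 (71.2) and Slc22a5 (43.4), while Slc22a2 and Slc22a3 did not. None of 7 genes of the plasminogen system and none of 8 genes of the renin-angiotensin system had one, 0 of 15 in all.

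Other imprinted domains differed in density, strength and promoter peaks. The window from H19 to Phlda2 on chromosome 7 (1028 kb, same margins) held 52 peaks, 50.6 per Mb, with a median signal of 154.7. That from Dlk1 to Dio3 on chromosome 12 (928 kb) held 20, 21.5 per Mb, with a median of 45.9. The Igf2r-Airn domain, at 42.4 per Mb and 79.4, lay between them in both. Above the list's median were 52% of its peaks, compared with 65.4% and 40.0%. The core was found at 84.0% of its peaks, compared with 65.4% in the H19 to Phlda2 window and 75% in the Dlk1 to Dio3 window. Promoter peaks numbered 0 of 25, compared with 11 of 52 and 3 of 20. With 1 domain each and no test, these values describe the 3 windows only.

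**Figure D5:**
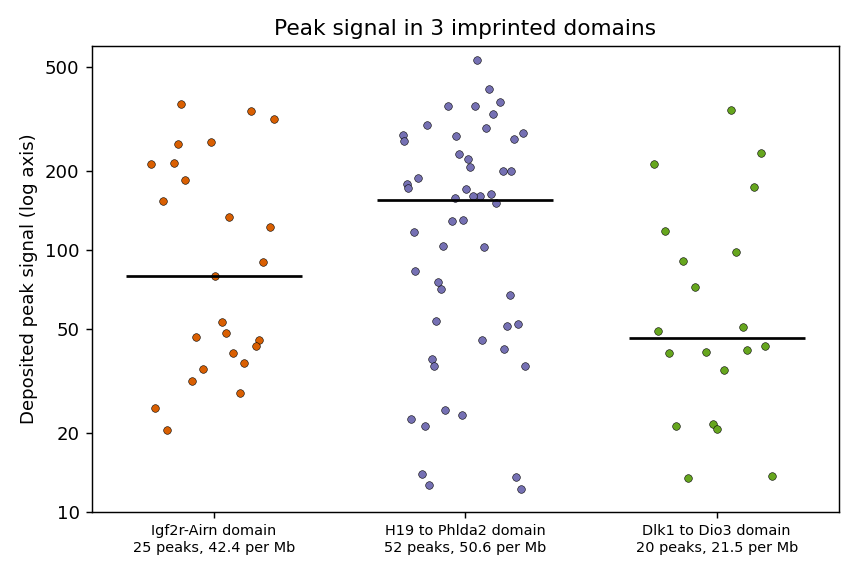
Signal of each optimal peak (log axis) in the Igf2r-Airn, H19 to Phlda2 and Dlk1 to Dio3 windows, with lines at the medians of 79.4, 154.7 and 45.9. The ranges overlap over most of their length.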

How the data were processed

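The authors deposited narrowPeak lists on mm10, per the labels: 1 per replicate, 1 pooled and 2 made from these by the irreproducible discovery rate (IDR), conservative and optimal. Information on the aligner, peak caller and thresholds is not given in the sources used here. Each peak's deposited signal has no stated scale, so ratios between replicate lists may include a difference in depth or scale. The optimal and conservative peaks carry the pooled list's signal, to rounding. The deposited −log10 q value sits at its highest, 5.03, for all 25 domain peaks and was not used. Read depth is unknown, so no interval on a signal is given.

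Summits were matched within 100 bp between lists. Genes came from GENCODE M21 and sequence from GRCm38.p6. The CTCF core was sought on both strands. A script tested on simulated data did this in Python 3.11.15 with pandas 2.3.3 and pysam 0.24.0. With 1 group, no test was run and shares of all peaks or genes stand beside each count. Named genes were the members, genes at domain peaks and, per list, those with the 3 strongest promoter peaks; other list genes are named to complete a count. Members and lists were chosen with earlier results of these data known. Other peak lists, margins, distances and mismatches were tried. Some results of the neighbourhood are not reported here.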

Additional observations from a re-analysis of the deposited data

How the results depend on the processing

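The density ratio of 2.02 kept its direction under each alternative run. It was 2.19 with the conservative list, 2.10 with the 28610 strongest peaks of the list, 1.95 without margin around the genes, and 2.26 without replicate 1 and 2.34 without replicate 2 (SD between these 2, 0.0575). Member genes with a promoter peak numbered 1, not 0, with the conservative list, without replicate 1 and without replicate 2, in each case Igf2r at an internal start, and 2, Igf2r and Mas1, when promoters reached 5 kb. The list cut to its 28610 strongest peaks, by its construction, held fewer domain peaks (13), fewer with the core (12) and fewer above its own median (8). With at most 1 mismatch allowed, 13 peaks had the core. The closest peak to Slc22a3 moved to 6.47 kb without replicate 1 and 6.48 kb without replicate 2, and that to Airn to 1.31 kb without replicate 2. The other 20 alternatives moved their counts by at most 1.5 times or the ratio by less than the SD of 0.0575. That SD rests on 2 values only, so it is a cutoff and not a measure of the uncertainty of the ratio. No read counts were used, so depth sets no stated limit on a weak peak. No paired analysis was possible because the series has 1 group.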
